A study of Mus musculus with 6 samples.

Results

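The genes that license, unwind and copy DNA before a cell divides were compared between B lineage cells of the gut wall and of the bone marrow in young mice. They are 42 genes, chosen by symbol from the textbook roles of origin licensing, helicase, polymerases, clamp and clamp loader, nucleotide supply and the cyclins of S phase entry. All 42 had a probe set that the array's gene table assigns to that gene alone, out of 19938 genes measured in all. Every mouse carried the RAG2-GFP reporter on the strain given as RAG2-GFP/129Sve and was 17 to 25 days old, with 8 to 12 mice used for each experiment. Cells positive for the reporter were sorted from lymphocyte preparations of the small intestinal lamina propria, the connective tissue under the gut epithelium, or from bone marrow. Green fluorescence driven by the recombinase gene Rag2 marks cells that assemble antigen receptor genes or did so recently, and the labels name no surface marker for the sort. Each tissue gave 3 independent pools, and each pool was hybridised to 1 array. No group was treated, and the labels set the groups apart by tissue of origin. Whatever else went with the tissue, such as cell preparation or RNA amount, cannot be told apart from it.

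DNA replication begins with licensing. The origin recognition complex (Orc genes) marks start sites, and Cdc6 and Cdt1 load the ring-shaped Mcm helicase there, while geminin (Gmnn) blocks reloading within the same cycle. In S phase Cdc45 and the GINS proteins turn the ring into an active helicase, primase and polymerase alpha lay down primers, polymerases epsilon and delta extend them, and the clamp Pcna, set on DNA by the Rfc loader, holds polymerases in place. In B cell development the large pre-B stage is known for rapid division, which alternates with resting stages in which Rag genes are used, and Rag2 protein is removed as cells enter S phase. Transcription of many of these genes is driven by E2F factors once cyclins D and E release them from the retinoblastoma family.

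The values were deposited log2 RMA values, so 1 unit is a doubling on the array scale. Before any comparison, the lamina propria arrays were set beside each other, since they were not alike. Across all genes pools 1 and 2 correlated with the marrow arrays at r = 0.766 to 0.829, while pool 3 correlated with them at r = 0.954 to 0.966. The interquartile range of values was 2.00 and 1.94 in pools 1 and 2 against 2.41 to 2.47 in the other 4 arrays. Results are therefore given over all pools, for pools 1 and 2 and for pool 3. Pool 3 was set apart by its likeness to the marrow in these same values. The limma p-values of fits without it are therefore descriptions. The RNA input was 4.5 to 47 ng, and no source read here gives the amount for each pool. The number of arrays limits the precision. The replicates are pools of sorted cells, so a lower value of a gene can mean fewer cells that express it or less RNA in each cell, and the 2 cannot be told apart.

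Most replication genes lay lower in the lamina propria on average, but pool 3 did not share this. A negative difference (lamina propria minus bone marrow) was found for 32 of the 42 genes, 76.2%, against 32.4% of all genes. Their median difference was -0.51, against 0.22 over all genes, or -0.73 relative to all genes. This gap depends on dim genes, here those at or below the median level of all genes. With them left out, the median was -0.425 for the 40 members kept and -0.0487 for all genes kept. With cyclic loess scaling, which moved the median of all genes from 0.22 to 0.02, the members' median was -0.33, or -0.35 relative to all genes, and 29 were negative (69%, against 47% of all genes). In pools 1, 2 and 3 the median distance from the marrow mean was -0.76, -0.85 and 0.08. For all genes these medians were 0.31, 0.31 and -0.01. Differences ran from -2.61 for Prim1 to 0.47 for Cdt1.

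None of the 42 genes passed an adjusted p of 0.05 in limma, as was true of every gene on the array (0%), and the smallest adjusted p among them was 0.331, for Ccne2. At an unadjusted p under 0.05, limma gave 12 of them as lower (28.6%, against 8.15% of all genes) and 1 as higher (2.38%, against 5.53%). Without overlap between the tissues, 7 genes were lower in the lamina propria (16.7%, against 7.27% of all genes), 1 was higher (2.38%, against 14.8%), and the other 34 overlapped. The shares over all genes take in dim genes, while 40 of the 42 had a mean above the median of all genes. In pools 1 and 2 genes of a higher marrow level lay lower in general, as given below. The shares are thus not matched for level. Without pool 3, limma placed 20 of the 42 lower (47.6%, against 12.1%) and 0 higher (against 24.1%). Without pools 1 and 2, it called 0 of the 42 and 0% of all genes. Over all pools, 0 of the 42 were also called with the pool number as a block (0.0802% of all genes), with an intensity trend and robust variances (0.201%) and with cyclic loess (0%), while array weights called 19 lower (45.2%, against 11.1%) and 0 higher (against 16.9%). In every one of 14 alternatives that held the gene, the direction stayed negative for 15 genes and positive for Cdt1 and Pold2. Some of the 14 could not turn a sign. The block, the intensity trend and the filter on dim genes leave a difference as it is. The mean of probe sets changes it only for genes with several. Orc1 and Pole2, which are among the 15, were held by 13, since the filter on dim genes left them out.

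**Figure D1:**
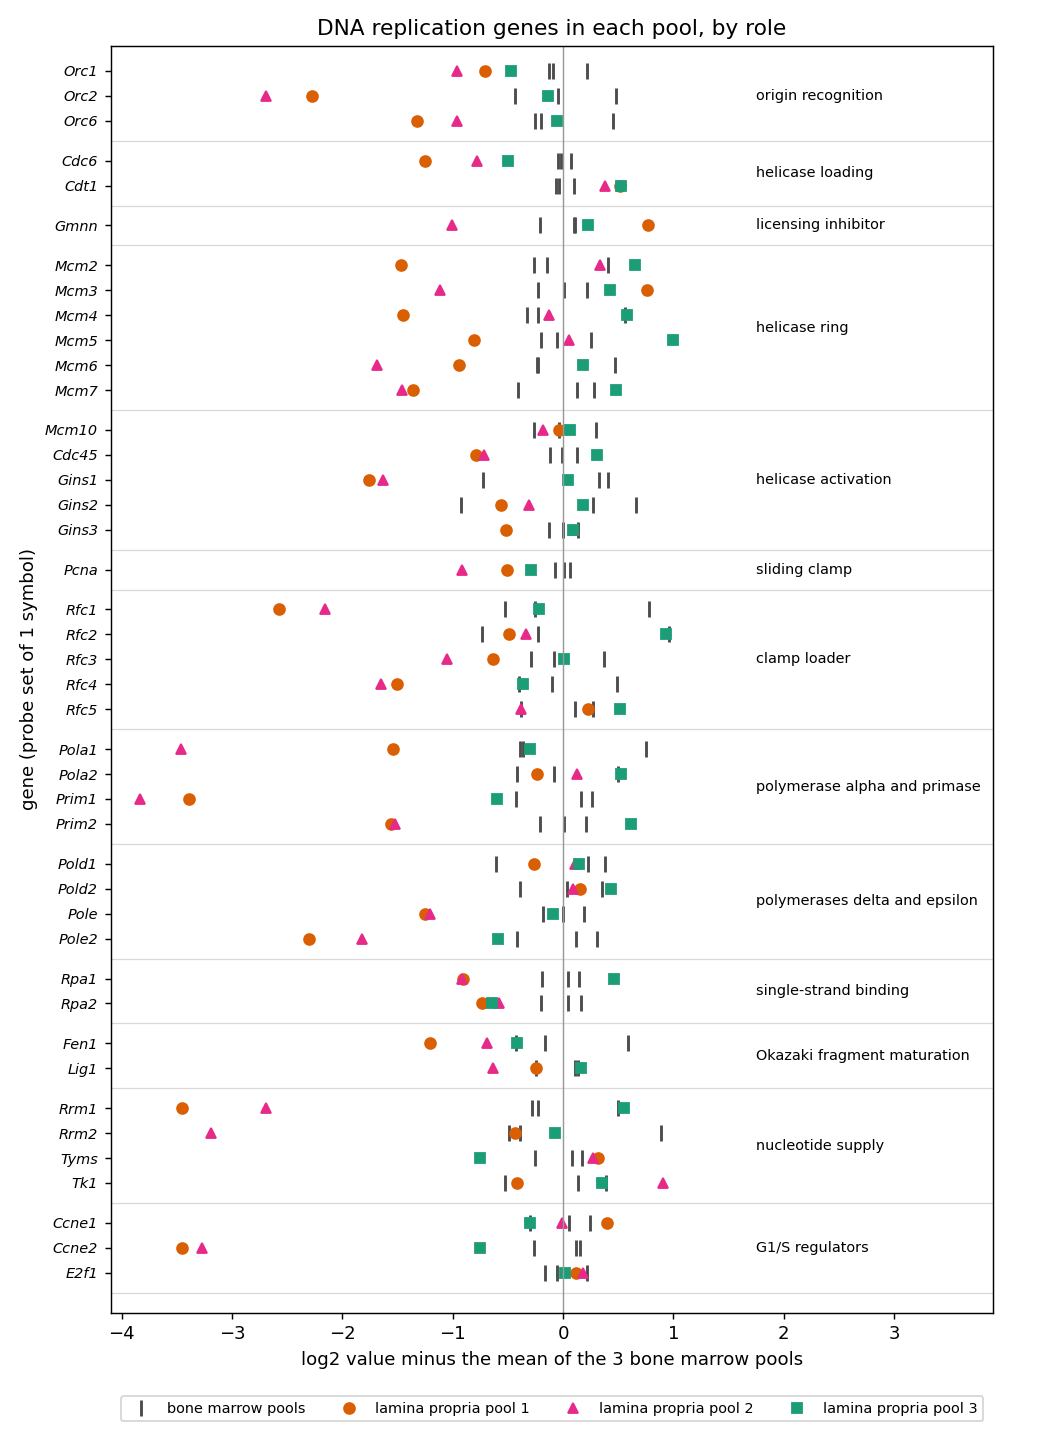
Each row is a replication gene, and the horizontal axis is its log2 value minus the mean of the 3 bone marrow pools. Coloured symbols are the lamina propria pools and grey ticks the marrow pools; pools 1 and 2 spread far to the left for Prim1, Ccne2, Rrm1, Orc2 and Rfc1, while pool 3 stays within 1 log2 unit of the marrow mean for all 42 genes.

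Promoter sequence is a feature the choice of genes did not use, and an element known from such genes was searched in these promoters. RefSeq start site windows on GRCm38.p6, from 250 bases before to 50 after the start, were given for 34 of the 42 genes. The E2F element was searched as TTTCCCGC, TTTCGCGC, TTTGCCGC or TTTGGCGC on both strands, with overlapping matches kept. It was found for 13 of the 34 genes, 38.2%, against 543 of 15614 measured genes with a window, 3.48%. Among 22 mitosis genes with a window 2 had it, 9.09%, whereas TTTGAA, the element called CHR, stood in 17 of these, in 5 of the 34 replication genes (14.7%) and in 17.3% of all genes with a window. The CCAAT box, the letters CCAAT on either strand, was found in 21 of the 34 and in 41.7% of all genes with a window. A match is a description of letters and does not show that a factor binds there. The 250 bases before the start of 5 genes are printed 5′ to 3′ on the gene's own strand, with E2F matches in capitals. They show 2 licensing genes that were lower without overlap (Orc1 and Cdc6), 2 helicase genes with overlapping tissues (Mcm6 and Mcm5), and Prim1, the gene with the lowest difference, in whose window these letters were not found.
Orc1, chr4:108579204-108579453, plus strand: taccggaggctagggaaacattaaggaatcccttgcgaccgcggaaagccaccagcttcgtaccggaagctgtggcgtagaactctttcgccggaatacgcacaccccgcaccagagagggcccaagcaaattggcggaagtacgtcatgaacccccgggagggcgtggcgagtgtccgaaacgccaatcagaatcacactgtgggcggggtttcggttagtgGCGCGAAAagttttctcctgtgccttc
Cdc6, chr11:98907901-98908150, plus strand: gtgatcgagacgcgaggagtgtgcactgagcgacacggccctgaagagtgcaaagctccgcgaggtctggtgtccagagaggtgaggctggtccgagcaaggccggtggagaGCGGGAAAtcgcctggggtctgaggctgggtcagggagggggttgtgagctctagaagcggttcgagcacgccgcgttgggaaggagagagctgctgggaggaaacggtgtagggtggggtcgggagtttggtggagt
Mcm6, chr1:128359706-128359955, minus strand: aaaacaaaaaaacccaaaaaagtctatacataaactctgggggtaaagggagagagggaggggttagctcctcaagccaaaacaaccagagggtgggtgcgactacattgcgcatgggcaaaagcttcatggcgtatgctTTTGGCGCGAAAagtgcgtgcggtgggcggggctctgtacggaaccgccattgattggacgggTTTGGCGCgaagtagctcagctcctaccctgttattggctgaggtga
Mcm5, chr8:75109259-75109508, plus strand: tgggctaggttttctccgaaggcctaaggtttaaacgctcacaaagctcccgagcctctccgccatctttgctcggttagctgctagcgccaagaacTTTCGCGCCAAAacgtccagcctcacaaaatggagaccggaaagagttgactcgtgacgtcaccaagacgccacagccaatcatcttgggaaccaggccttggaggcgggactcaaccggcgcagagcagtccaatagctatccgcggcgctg
Prim1, chr10:128014965-128015214, plus strand: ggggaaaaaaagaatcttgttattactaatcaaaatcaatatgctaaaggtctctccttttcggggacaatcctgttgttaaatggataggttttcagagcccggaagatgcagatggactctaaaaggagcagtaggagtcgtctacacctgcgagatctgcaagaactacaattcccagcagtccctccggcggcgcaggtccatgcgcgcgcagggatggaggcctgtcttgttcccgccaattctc

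Counted from the start, with bases before it negative, the match began at -27 in Orc1 and at -138 in Cdc6. Mcm6 had 3 matches, of which those at -110 and -106 overlap each other, and Mcm5 had 2 that overlap, at -153 and -149. In Cdt1 and Pole2 the match lay after the start, at 33 and 11. Members with a match had a median difference of -0.56, and those without one -0.45. Over all genes with a window these medians were -0.06 and 0.22. Genes with the element thus lay on both sides of the tissue comparison, from Pola1 at -1.77 to Cdt1 at 0.47.

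Origin recognition genes lay lower in lamina propria pools 1 and 2, and inside or just under the marrow range in pool 3. Orc1, the largest subunit of the complex and an ATPase, had values of 5.08, 4.83 and 5.32 in lamina propria pools 1 to 3 and of 5.71, 5.67 and 6.01 in marrow pools 1 to 3. All its lamina propria values were below all marrow values, with a difference of -0.71 (95% interval -1.23 to -0.19, limma adjusted p = 0.356, n = 3 per tissue). Orc2 read 4.77, 4.35 and 6.91 against 6.61, 7.001 and 7.53 in the marrow. Here pools 1 and 2 stood far below the marrow and pool 3 inside its range, so the tissues overlapped, and the difference was -1.71 (95% interval -3.20 to -0.21). Orc6, a small subunit, had 5.51, 5.88 and 6.78 in the lamina propria and 6.64, 6.59 and 7.29 in the marrow, a difference of -0.78 with the same arrangement of pools. Without pool 3 all of the 3 genes passed, with limma adjusted p of 0.0265 for Orc1, 0.0124 for Orc2 and 0.0317 for Orc6. In that fit 12.1% of all genes were called lower.

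The pair of helicase loaders went opposite ways in every pool. Cdc6, an ATPase that joins the origin complex, read 5.47, 5.94 and 6.22 in lamina propria pools 1 to 3 and 6.79, 6.67 and 6.70 in the marrow. Its means of 5.88 ± 0.38 and 6.72 ± 0.06 (SD, n = 3 each) were -0.84 apart (95% interval -1.41 to -0.27, limma adjusted p = 0.343), 1.79-fold lower in the lamina propria. Cdt1, which brings the helicase to the origin, read 6.06, 5.92 and 6.07 in the lamina propria and 5.51, 5.65 and 5.48 in the marrow. It was the single replication gene with every lamina propria pool above every marrow pool, with means of 6.02 ± 0.08 and 5.54 ± 0.09 (SD, n = 3 each) that differed by 0.47 (95% interval 0.04 to 0.91, limma adjusted p = 0.356). Pool 3 was not set apart here, with distances from the marrow mean of 0.51, 0.38 and 0.52 in the 3 pools. Of all genes 14.8% were higher in the same way. Gmnn, the protein that holds Cdt1 back, had 7.57, 5.80 and 7.04 in the lamina propria and 6.91, 6.60 and 6.91 in the marrow. Pool 1 lay above the marrow pools and pool 2 below them, and the difference was 0.00 (95% interval -1.01 to 1.01).

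**Figure D2:**
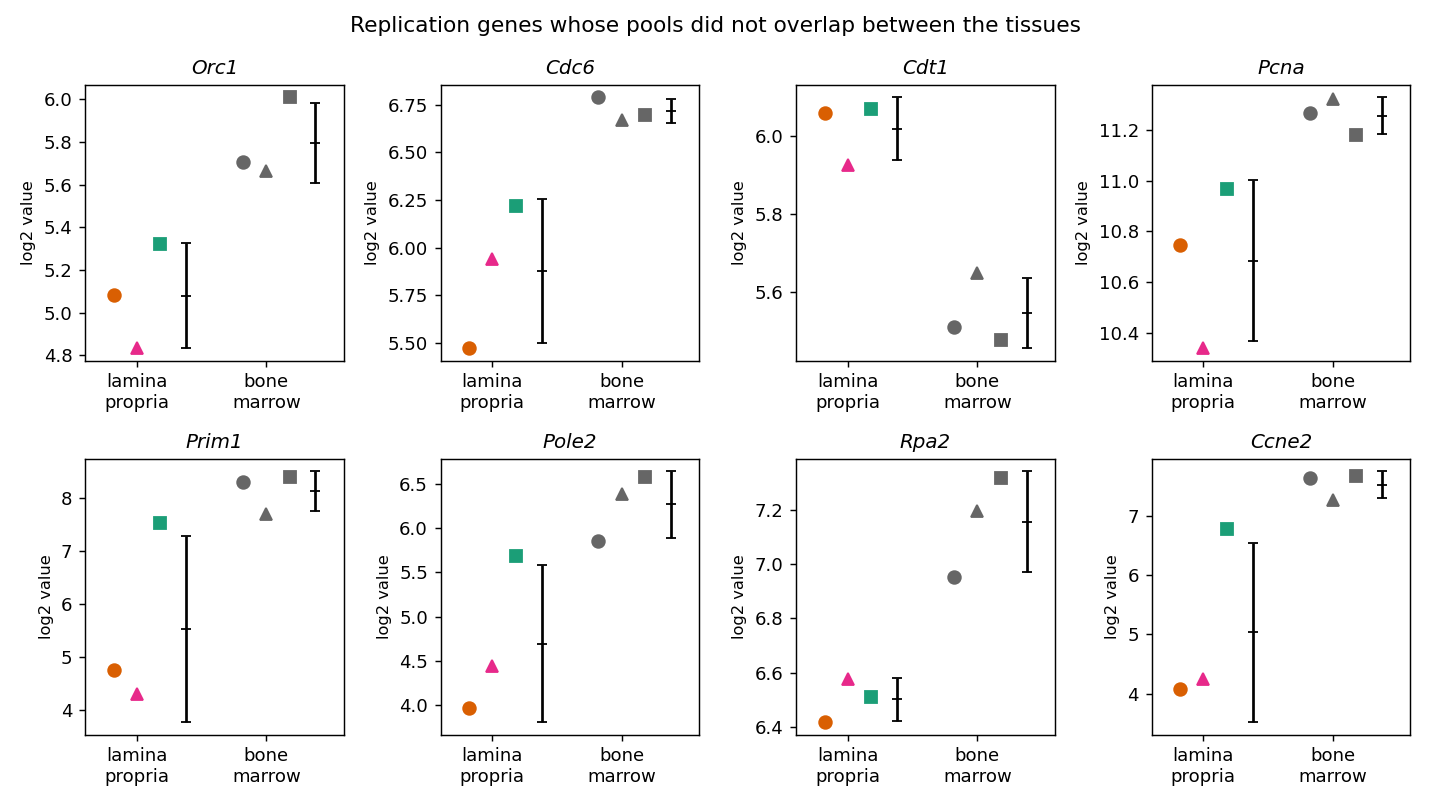
The 8 replication genes whose pools did not overlap between the tissues, with log2 values on the vertical axes, which do not start at 0. Circles, triangles and squares are pools 1, 2 and 3, and bars show the mean ± SD of 3 pools; Cdt1 is higher in the lamina propria and the other 7 are lower, with pool 3 nearest to the marrow except in Cdt1 and Rpa2.

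The 6 subunits of the helicase ring, which act as a single hexamer, did not behave as a block in the lamina propria. In pool 3 all of them lay above the marrow mean, by a median of 0.53. Of the 6, 5 lay above every marrow pool there, as did 24.8% of all genes. In pools 1 and 2 the medians were -1.15 and -0.62. Mcm5 read 7.02, 7.88 and 8.82 in lamina propria pools 1 to 3 and 8.08, 7.77 and 7.63 in the marrow. Pool 1 was under the marrow range, pool 2 inside it and pool 3 above it, 0.998 over the marrow mean, and the difference of 0.08 (95% interval -0.93 to 1.10) turned to -0.41 with array weights and lay between -0.38 and 0.53 in fits without a single array. Mcm6 read 7.84, 7.10 and 8.96 against 8.55, 8.55 and 9.26. Its pools 1 and 2 were the low ones, with a difference of -0.82 (95% interval -1.92 to 0.28, limma adjusted p = 0.365) that was 0.18 in pool 3.

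Pools 1 and 2 also disagreed with each other over which subunits were low. Mcm2 was at 5.86 in pool 1 and 7.67 in pool 2, with 7.98 in pool 3 and 7.73, 7.06 and 7.18 in the marrow. Mcm3 was the reverse, at 8.47 in pool 1, 6.59 in pool 2 and 8.14 in pool 3 against 7.72, 7.48 and 7.93. Mcm4, at 6.56, 7.88 and 8.59 against 7.78, 7.68 and 8.57, followed Mcm2, with pool 3 above the highest marrow pool by a margin of hundredths. Mcm7 was low in both, at 5.94 and 5.84, and highest of the 6 arrays in pool 3, at 7.77 against 6.89, 7.42 and 7.58 in the marrow. A gap of more than 1 log2 unit between pools 1 and 2 occurred in 7 of the 42 replication genes (16.7%, against 9.36% of all genes), which were Gmnn, Mcm2, Mcm3, Mcm4, Pola1, Rrm2 and Tk1. The differences of Mcm2, Mcm3, Mcm4 and Mcm7 were -0.16, 0.02, -0.33 and -0.78. The first became 0.05 with cyclic loess and the second -0.02 with median centring, so neither has a settled direction.

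**Figure D3:**
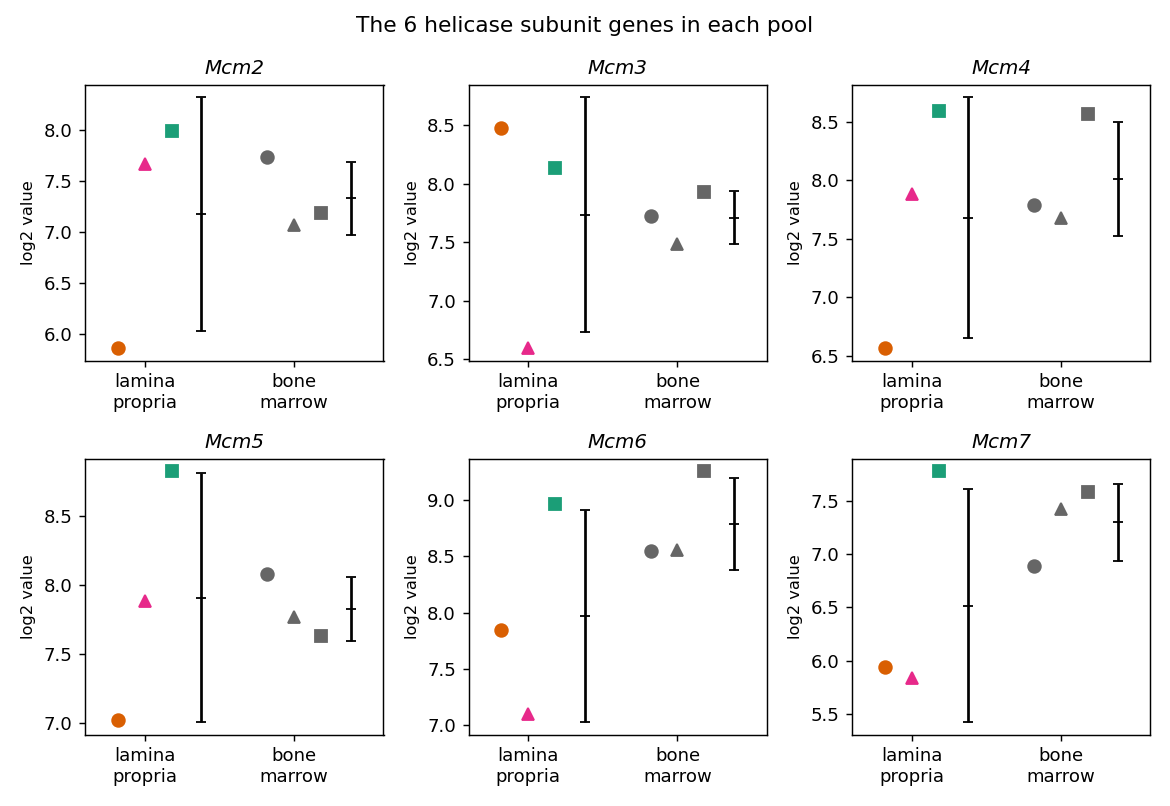
Log2 values of the 6 helicase subunit genes in each pool, with circles, triangles and squares for pools 1, 2 and 3 and bars for the mean ± SD of 3 pools; the vertical axes do not start at 0. Pool 3 of the lamina propria is the highest of all 6 arrays for Mcm2, Mcm4, Mcm5 and Mcm7, and pool 1 is the highest for Mcm3.

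Among genes that activate the helicase, the tissues overlapped throughout. Cdc45, part of the active helicase, read 6.48, 6.55 and 7.58 in the lamina propria and 7.15, 7.39 and 7.26 in the marrow, a difference of -0.40 (95% interval -1.15 to 0.35). Pools 1 and 2 lay below the marrow range and pool 3 above it. Gins2 read 7.37, 7.63 and 8.12 against 8.21, 8.60 and 7.01, where marrow pool 3 was the lowest of all 6 arrays, and its difference was -0.23. Gins1 differed by -1.11 (95% interval -2.37 to 0.14) and passed without pool 3 (limma adjusted p = 0.0278). Gins4, the fourth GINS gene and not among the 42, differed by -1.60 (95% interval -3.09 to -0.12), with pool 3 inside the marrow range and a limma adjusted p of 0.0092 without it. Gins3 differed by -0.11 and Mcm10, a factor that promotes helicase activation, by -0.05. In Mcm10 all lamina propria pools lay inside the marrow range.

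Pcna, the sliding clamp, lay lower in each lamina propria pool, at 10.75, 10.34 and 10.97 against 11.27, 11.32 and 11.18 in the marrow. The lowest marrow pool was above the highest lamina propria pool, and the difference was -0.57 (95% interval -1.10 to -0.04, limma adjusted p = 0.356), or 1.48-fold. A second probe set for Pcna gave -0.56, with nearly the same values on each array. Clamp loader genes were divided. Rfc1, the large subunit, read 5.72, 6.13 and 8.08 against 8.04, 7.77 and 9.08, and differed by -1.65 (95% interval -3.14 to -0.16). Its pools 1 and 2 lay more than 2 units under the marrow mean and pool 3 inside the marrow range. Rfc3 read 7.52, 7.10 and 8.16 against 7.86, 8.53 and 8.07, a difference of -0.56. Rfc4, at -1.17 (95% interval -2.11 to -0.24), was low in pools 1 and 2, while Rfc5 differed by 0.12 and Rfc2 by 0.04, a value that became -0.01 with median centring.

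The polymerase alpha and primase complex held Prim1, the replication gene with the lowest difference, and also Pola2, which overlapped the marrow widely. Prim1, the catalytic primase subunit, read 4.74, 4.29 and 7.53 in lamina propria pools 1 to 3 and 8.29, 7.70 and 8.39 in the marrow. All lamina propria pools were below the marrow, with distances from its mean of -3.39, -3.84 and -0.60 in pools 1, 2 and 3. The difference was -2.61 (95% interval -4.44 to -0.78, limma adjusted p = 0.343), or 6.09-fold lower. Prim2, the partner subunit of primase, differed by -0.82 (95% interval -2.15 to 0.50), and its pool 3 lay 0.62 above the marrow mean and over every marrow pool. Pola1, the catalytic polymerase subunit, read 6.98, 5.06 and 8.22 against 8.13, 8.16 and 9.27, a difference of -1.77 (95% interval -3.53 to -0.01) with pool 3 inside the marrow range. Pola2, its accessory subunit, differed by 0.14 (95% interval -0.59 to 0.87).

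The catalytic and second subunits of polymerases epsilon and delta differed in where pools 1 and 2 lay. Pole2, the second subunit of the leading strand polymerase epsilon, read 3.96, 4.44 and 5.68 in the lamina propria and 5.85, 6.38 and 6.57 in the marrow. The tissues did not overlap, with a difference of -1.57 (95% interval -2.62 to -0.53, limma adjusted p = 0.342) or 2.97-fold lower. Pole, the catalytic subunit, differed by -0.85 (95% interval -1.64 to -0.05), with pool 3 inside the marrow range. Pold1, the catalytic subunit of polymerase delta, read 6.27, 6.64 and 6.67 against 6.92, 6.76 and 5.92, a difference of -0.01 (95% interval -0.72 to 0.71). Pold2 read 6.30, 6.24 and 6.59 against 6.51, 6.18 and 5.76, a difference of 0.23 (95% interval -0.36 to 0.82). For both delta genes pools 1 and 2 lay inside the marrow range, where marrow pool 3 was lowest. The difference between the epsilon and delta genes was not tested.

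Rpa2 lay lower in all lamina propria pools by a similar distance. It encodes the middle subunit of the complex that coats single-stranded DNA, and read 6.42, 6.58 and 6.51 in the lamina propria and 6.95, 7.20 and 7.32 in the marrow. The means were 6.50 ± 0.08 and 7.16 ± 0.19 (SD, n = 3 each), and the difference was -0.65 (95% interval -1.12 to -0.19, limma adjusted p = 0.351). The distances from the marrow mean were -0.74, -0.58 and -0.65 in pools 1, 2 and 3. Rpa1, the large subunit, did not share this, at 6.13, 6.12 and 7.49 against 7.08, 6.84 and 7.17, with pool 3 the highest of all arrays and a difference of -0.45 (95% interval -1.36 to 0.46). Of the genes that finish the lagging strand, the ligase Lig1 read 7.84, 7.46 and 8.25 against 8.19, 7.84 and 8.23 (difference -0.24), and the flap nuclease Fen1 read 4.95, 5.47 and 5.74 against 6.74, 5.73 and 5.99 (difference -0.77, 95% interval -1.55 to 0.01). In both, pool 3 reached the marrow values and pool 2 lay below them.

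Among genes of nucleotide supply, Rrm1 had the widest gap between lamina propria pools. Rrm1, the large subunit of ribonucleotide reductase, which makes deoxynucleotides, was at 4.84 and 5.59 in pools 1 and 2 and at 8.84 in pool 3, with 8.07, 8.01 and 8.79 in the marrow. Pool 3 was thus the highest array and pools 1 and 2 the lowest, and the difference of -1.86 had a 95% interval of -4.07 to 0.34. Rrm2, the small subunit, read 7.64, 4.88 and 8.00 against 7.58, 7.68 and 8.96, so that pool 2 alone lay outside the marrow range (difference -1.23, 95% interval -3.14 to 0.68). Tk1, the salvage enzyme thymidine kinase, read 7.02, 8.34 and 7.79 against 7.57, 7.83 and 6.91, a difference of 0.28 that was 0.13 on its second probe set. Tyms, which makes thymidylate, was 1 of 9 genes in which pool 3 lay below the marrow, at 5.99 against 7.06 and 7.01 in pools 1 and 2 and 6.82, 6.91 and 6.49 in the marrow.

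The 2 E-type cyclins, which activate Cdk2 at S phase entry, differed in their pattern. Ccne2 read 4.07, 4.25 and 6.78 in the lamina propria and 7.64, 7.26 and 7.68 in the marrow. No lamina propria pool reached the marrow range, and the difference was -2.49 (95% interval -4.07 to -0.91, limma adjusted p = 0.331), or 5.63-fold lower. The distances from the marrow mean were -3.45, -3.28 and -0.75 in pools 1, 2 and 3, and without pool 3 the limma adjusted p was 0.00398. Ccne1, by contrast, had a difference of 0.03 (95% interval -0.58 to 0.64), which became -0.02 with median centring and -0.18 with cyclic loess. E2f1, the transcription factor that names the family, read 5.80, 5.86 and 5.70 against 5.90, 5.52 and 5.62, with all lamina propria pools inside the marrow range and a difference of 0.11 (95% interval -0.36 to 0.58) that turned to -0.08 with cyclic loess.

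Set against the range of the marrow pools, pool 3 carried 15 replication genes above it (35.7%, against 24.8% of all genes), 18 inside it and 9 below it (21.4%, against 26.7%). The 9 below were the 7 genes without overlap, Tyms and Ccne1. Pools 1 and 2 lay together below the marrow range in 22 genes (52.4%, against 18.7%) and together above it in 2 (4.76%, against 51.2%), Cdt1 and Tyms. Pool 3 was the highest lamina propria pool for 34 of the 42 genes (81%, against 25.5%). The SD among lamina propria pools had a median of 0.66 over the replication genes and 0.35 among marrow pools, and over all genes 0.39 and 0.17. Marrow pools themselves spanned more than 1 log2 unit in 7 replication genes (16.7%, against 8.04%), and marrow pool 3 stood a median of 0.20 above the other marrow pools for these genes.

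The level of a gene in the marrow moved with its difference in pools 1 and 2, over all genes. Among all genes with a marrow mean of 6 to 7 the median distance from that mean was -0.09 and -0.13 in pools 1 and 2, and the 14 replication genes of this level had -1.23 and -0.87. At 7 to 8 it was -1.02 and -1.07 for all genes, and -0.80 and -0.65 for 12 replication genes. At 8 to 9 it was -1.38 and -1.55 for all genes, and -1.45 and -2.16 for 9 replication genes, with Prim1, Pola1, Rrm1, Rrm2 and Rfc1 among them. At 5 to 6 all genes were above the marrow, by 0.44 and 0.40, and the 6 replication genes by 0.04 and 0.06. The replication genes thus had the lower medians at each level but 7 to 8, where theirs were higher than those of all genes. In pool 3 the median for all genes was between -0.05 and -0.02 at each of these levels, and that of replication genes was 0.39 at 7 to 8 and within 0.04 of the marrow mean at the other levels. Each of these levels holds few replication genes, and the part of this shift in their differences was not tested.

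**Figure D4:**
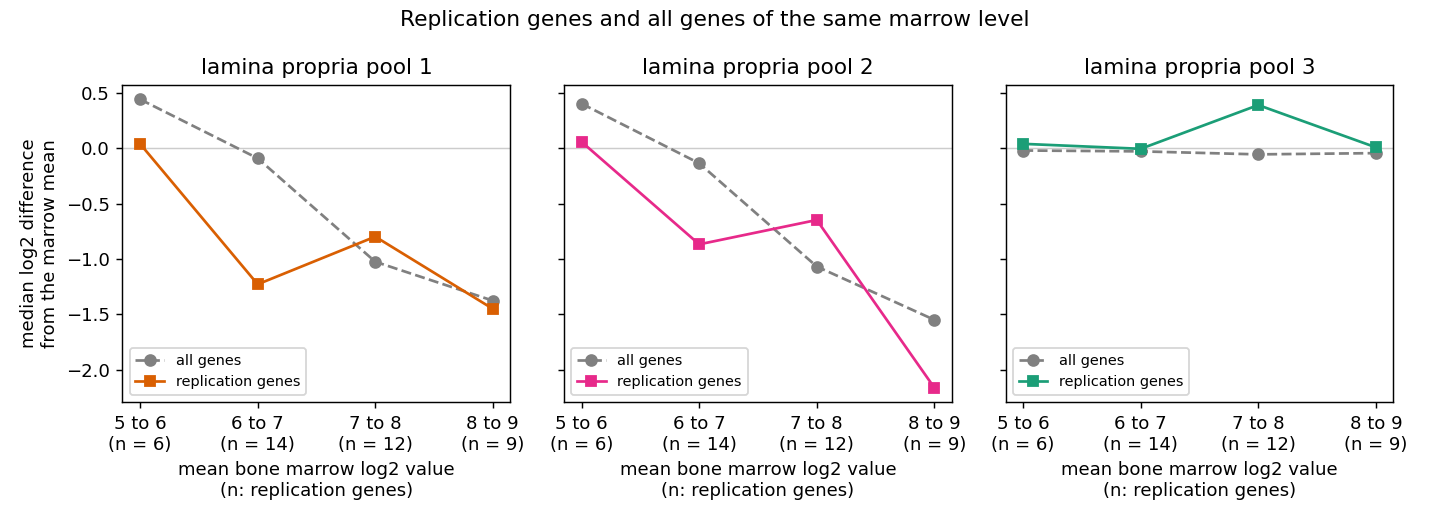
Median log2 difference from the marrow mean (vertical axis) for genes grouped by their marrow mean (horizontal axis), for all genes and for the replication genes, in each lamina propria pool. In pools 1 and 2 the line for all genes drops from above 0 to -1.38 and -1.55 as the marrow level rises, and in pool 3 it stays near 0; n is the number of replication genes, at most 14.

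Further genes of replication and of its control were read in 6 lists. Of 66 measured genes 52 had a negative difference, as did 32.4% of all genes, and their median was -0.53. None passed over all genes in limma, 15 had an unadjusted p under 0.05, all lower (8.15% of all genes were), and 13 were lower and 2 higher without overlap (against 7.27% and 14.8% of all genes). Among 11 origin firing factors 10 were negative and 3 lower without overlap. Orc3 and Orc4, further subunits of the origin complex, differed by -1.86 and -1.64 and Ticrr, which recruits Cdc45, by -0.33. Orc5, the remaining subunit in that list, differed by -0.33 (95% interval -1.14 to 0.48), with pools 1 and 2 inside the marrow range and pool 3 below it. Among 17 other fork proteins 15 were negative and 4 lower without overlap. Rnaseh2b, a subunit of the enzyme that removes ribonucleotides, read 5.71, 6.24 and 6.33 against 7.30, 6.86 and 7.89, a difference of -1.25 (95% interval -2.00 to -0.51, limma adjusted p = 0.307). Rpa3, the smallest subunit of the Rpa complex, was like Rpa2 lower in each pool, at -0.87 (95% interval -1.55 to -0.18), and lowest in pool 3. A second probe set of Rpa3 differed by -0.90 but was lowest in pool 1, at 4.86, 5.60 and 4.88 in pools 1 to 3. Tipin, which stabilises stalled forks, differed by -1.62, with pool 1 at 4.45 and pools 2 and 3 at 7.90 and 8.07.

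All 8 measured genes of chromatin assembly had a negative difference, with a median of -0.53, but Chaf1b at -0.51 was the single gene without overlap. For this list and those that follow, the shares over all genes were 32.4% negative, and 7.27% lower and 14.8% higher without overlap. Of 10 other genes of nucleotide supply 6 were negative. Rrm2b, the ribonucleotide reductase subunit used outside S phase, differed by -1.19 (95% interval -1.92 to -0.46) and the salvage kinase Dck by -0.86, both without overlap. Of 11 other drivers of S phase entry 8 were negative and the E2F family gene E2f2, at 0.31, was higher without overlap. Brakes of the cycle were mixed, with 5 of 9 negative. Rbl1 and Rbl2, the retinoblastoma relatives p107 and p130, differed by -2.23 (95% interval -3.51 to -0.96, limma adjusted p = 0.30034) and -1.44, the cyclin kinase inhibitor Cdkn2c by -0.65, and E2f4, their repressive partner, by 0.48, all without overlap. Rbl1 read 4.17, 4.33 and 6.04 against 6.55, 6.91 and 7.78, with pool 3 nearest to the marrow.

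Mitosis genes act after replication. Of 24 measured, 18 had a negative difference, as did 32.4% of all genes, with a median of -0.36. The medians in pools 1, 2 and 3 were -0.43, -0.53 and -0.16. In pool 3, 2 lay above every marrow pool, 17 inside the range and 5 below it. Of all genes 24.8% lay above and 26.7% below. For replication genes 15 of 42 lay above, or 35.7%. The difference between the lists was not tested. Top2a, a topoisomerase of dividing cells, read 7.22, 5.80 and 8.37 against 8.65, 8.59 and 9.70, and Ndc80, a kinetochore protein, 6.87, 6.46 and 6.19 against 7.42, 7.18 and 7.42. Both were lower without overlap, at -1.84 and -0.83 (7.27% of all genes were lower in this way), and Ndc80 was lowest in pool 3. A second probe set of Top2a differed by -0.16, and the mean of both by -1.002. This second probe set was dim, at 2.77 to 4.50 over the arrays, against 5.80 to 9.70 for the one used. Marrow pool 3 stood a median of 0.23 above the other marrow pools for this list, and without it the list's median difference was -0.10.

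Cell identity was read from lists of marker genes. Of 10 measured B lineage markers, among them Cd79a, Pax5 and Vpreb1, the mean level was 9.24 to 9.51 in the lamina propria and 9.40 to 10.11 in the marrow, with a median difference of -0.23. The list mean did not hold for each gene. Pax5 read 7.74, 9.34 and 9.77 in lamina propria pools 1 to 3 and 10.29, 9.95 and 8.47 in the marrow. Cd79b read 10.18, 7.22 and 9.89 against 9.75, 9.69 and 9.43. The 2 markers of the list without overlap were the recombinase genes. Rag2, whose reporter defined the sort, read 5.67, 5.75 and 6.06 in the lamina propria and 7.76, 8.49 and 8.28 in the marrow, lower in every pool, pool 3 included. Its difference was -2.35 (95% interval -2.95 to -1.75), with a limma adjusted p of 0.155, the smallest on the array. Rag1 differed by -1.05 (95% interval -1.66 to -0.43). Markers of other cells lay at means of 4.85 to 6.51 in every array. All 7 T cell markers and 11 of 12 intestinal epithelium markers had a positive difference, as did 67.6% of all genes, with medians of 0.43 and 0.51, and in pool 3 alone their medians were 0.21 and 0.36. Genes of all kinds with a marrow mean of 4 to 5 lay 0.52 and 0.54 above it in pools 1 and 2, and with cyclic loess 1 T cell and 4 epithelial markers were negative, with medians of 0.24 and 0.30, while 53% of all genes were positive. Granulocyte markers, a marrow cell type, reached 6.22 in marrow pool 2 against 5.01 in the lowest marrow pool. All 5 measured erythroid markers were positive, by 0.13 to 0.42, with overlap in each, and with cyclic loess 1 was negative and their median was 0.07 in place of 0.30. The median differences of macrophage, plasma cell and stromal markers were 0.19, 0.19 and 0.39, and that of granulocyte markers 0.02. Without overlap, 5 epithelial, 4 T cell, 2 plasma cell, 1 macrophage and 1 stromal marker were higher (14.8% of all genes were). The largest differences among these were 1.41 for Jchain, a plasma cell marker, and 1.31 for Olfm4, an epithelial one. Jchain was dim, at 3.83 to 4.79 in the lamina propria and 2.78 to 3.24 in the marrow. Other markers of these 2 lists went the other way. Of 6 plasma cell markers 2 were negative, with Igha at -1.31, and the negative epithelial marker was Lgr5 at -1.27. Lower without overlap were 1 epithelial, 1 macrophage and 1 granulocyte marker (7.27% of all genes were). No marker gene passed in limma. The part of these cells in the differences of replication genes was not tested.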

How the data were processed

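Pools of sorted cells from 2 tissues were measured on 6 arrays. The submitters' processing notes name RMA and the program Affymetrix Expression Console (version 1.3.0.187), and the deposited values are on a log2 scale. RMA in general forces the arrays to like distributions, so a broad change on an array also shifts its other values. No setting is stated. The values were used as deposited. The platform's gene table gave 1 symbol for 21789 of 35556 probe sets, several for 1621 and none for 12146, and a gene was represented by its probe set with the highest mean, which gave 19938 genes. RMA values carry no detection call, and 40 of the 42 genes had a mean above the median of all genes.

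A linear model per gene (limma 3.58.1, R 4.3.3, moderated variances, two-sided, no block) compared the tissues; p-values were adjusted by Benjamini and Hochberg's method across the 19938 genes, with 0.05 as the threshold. With 3 pools per tissue, exact permutation cannot go below p = 0.1, so it was not used. The members and lists were chosen with earlier results of these data known, and list medians and counts are descriptions. All members are named, with pool values for those without overlap, the 2 with the highest mean in each role and those that show a contrast, the last picked after their values were seen; of other lists, up to 3 genes without overlap are named. The fit was tested on simulated data for 3 against 3 arrays and 19938 genes, with the spread of the marrow arrays, and recovered 53% of genes changed by 1 log2 unit and 83% of those changed by 2. The lamina propria pools spread more, with a median SD of 0.39 against 0.17 in the marrow over all genes. The simulation leaves out that wider spread, so its recovery does not apply to the real comparison. Pool numbers were checked as pairs; deviations of same-numbered pools correlated at r = 0.131, 0.051 and 0.226, not all above the 0.1 set for treating them as pairs, and the labels do not say whether numbers pair the tissues. Promoter sequences are from RefSeq, build GRCm38.p6. Figures were drawn with matplotlib 3.10.9.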

Additional observations from a re-analysis of the deposited data

How the results depend on the processing

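Without lamina propria pool 3, or with array weights that gave it a weight of 0.15, calls appeared. With array weights limma called 5586 genes, 19 replication genes and 25 other replication genes. Leaving out 1 array gave 0 to 7222 genes, 0 to 20 replication genes and 0 to 28 other replication genes, the highest each time without lamina propria pool 3. Replication genes lower without overlap numbered 7 to 22 in these fits. The 22 (52.4%) came without pool 3, where 18.7% of all genes were lower in this way, against 7.27% over all pools. The members' median ran from -0.77 to -0.35, and that of mitosis genes from -0.57 to -0.10, the latter without marrow pool 3. With pool 3 as the only lamina propria array, these medians were 0.0774 and -0.16; the spread of that single array was taken from the marrow. With an intensity trend and robust variances 40 genes were called, and with the pool number as a block 16, none of them a replication gene in either; the pools correlated best with their own number in 2 of 3 cases. The cause was not tested for any of these changes. Centring, cyclic loess, a filter on dim genes, the mean of a gene's probe sets and a threshold of 0.01 each left the count of called replication genes at 0.

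Signs of single genes turned as follows, in pool 3 alone also for genes far from 0, such as Rrm1, Gins1 and Prim2. Centring gave -0.0249 for Mcm3, -0.0131 for Rfc2 and -0.0185 for Ccne1. Cyclic loess gave 0.12 for Gmnn, 0.0481 for Mcm2, 0.0058 for Gins2, 0.0424 for Pold1, 0.046 for Tyms, -0.18 for Ccne1 and -0.0752 for E2f1. Array weights gave 0.14 for Gmnn, -0.41 for Mcm5, -0.53 for Rfc2, -0.14 for Pola2, 0.16 for Tyms and -0.0313 for Tk1. In pool 3 alone the values were 0.23 for Gmnn, 0.66 for Mcm2, 0.58 for Mcm4, 0.18 for Mcm6, 0.48 for Mcm7, 0.0628 for Mcm10, 0.31 for Cdc45, 0.0459 for Gins1, 0.18 for Gins2, 0.092 for Gins3, 0.0095 for Rfc3, 0.62 for Prim2, 0.14 for Pold1, 0.46 for Rpa1, 0.16 for Lig1, 0.55 for Rrm1 and -0.30 for Ccne1. Leaving out 1 array gave -0.39 to 0.50 for Gmnn, -0.56 to 0.50 for Mcm2, -0.35 to 0.59 for Mcm3, -0.79 to 0.22 for Mcm4, -0.38 to 0.53 for Mcm5, -0.18 to 0.10 for Mcm10, -0.70 to 0.10 for Gins2, -0.21 to 0.10 for Gins3, -0.41 to 0.51 for Rfc2, -0.0752 to 0.37 for Rfc5, -0.0693 to 0.39 for Pola2, -0.31 to 0.18 for Pold1, -0.24 to 0.30 for Tyms, -0.0319 to 0.63 for Tk1 and -0.16 to 0.20 for Ccne1.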
